A study of Mus musculus with 6 samples.

Results

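The 10 core circadian clock genes Arntl, Clock, Npas2, Per1, Per2, Per3, Cry1, Cry2, Nr1d1 and Nr1d2 were followed in quadriceps muscle of 6 male mice. They were taken by gene symbol and accounted for 10 of 33641 gene symbols and 40 of 105129 transcript rows in the expression table. Of the 10 genes, 9 reached 1 TPM in at least 3 libraries and were tested, Npas2 being the exception, and so were 14 of the 40 transcript rows. TPM is an abundance scaled to the library total and to transcript length, so levels can be compared between genes.

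The mice were littermates of heterozygous parents, aged about 16 weeks, and the muscle was frozen at about ZT4, 4 hours after lights on. The homozygous group (3 libraries) carried on both chromosomes an allele that copies rs6190, a variant of the human glucocorticoid receptor gene, and the WT group (3 libraries) carried the reference allele on both. RNA was poly-A selected and made into stranded libraries, 1 per column of the table. A single time of day was sampled, so neither phase nor amplitude of the rhythm can be read from these values. In whole muscle, fewer cells of a type and less RNA per cell cannot be told apart.

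The circadian clock is a feedback loop of transcription. The proteins of Arntl (BMAL1) and Clock, or its relative Npas2, bind E-box sequences and switch on the Period and Cryptochrome genes, whose proteins return to the nucleus and inhibit them. A stabilising loop runs through Nr1d1 and Nr1d2, which encode the REV-ERB repressors, and through the ROR activators, which compete for ROR elements in Arntl and other genes. In skeletal muscle the clock times genes of fuel use, and glucocorticoids are known to induce Per1 and Per2 through the glucocorticoid receptor.

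The sequences in front of the start sites show which clock elements these genes carry close by. Promoter windows from RefSeq on GRCm38.p6, 250 bases before each start, were found for 9 of the 10 genes (13 windows), Per2 being the one without an entry. Each was searched on both strands for the E-box CACGTG, the related E-prime box CACGTT, the ROR element core AGGTCA, the D-box TTATGNAA and the palindromic glucocorticoid element. The 5 windows below belong to genes with at least 1 match whose values set the homozygous apart from the WT libraries on the TPM or the median-centred scale described further on. They read 5′ to 3′ toward the start, with the matches in capitals.
Cry1, chr10:85185055-85185304, minus strand: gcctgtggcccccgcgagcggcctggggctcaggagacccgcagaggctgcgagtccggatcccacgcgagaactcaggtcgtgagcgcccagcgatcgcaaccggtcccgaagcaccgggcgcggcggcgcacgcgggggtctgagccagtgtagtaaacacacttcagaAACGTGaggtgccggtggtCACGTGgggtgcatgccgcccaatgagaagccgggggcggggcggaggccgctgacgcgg
Cry2, chr2:92434070-92434319, minus strand: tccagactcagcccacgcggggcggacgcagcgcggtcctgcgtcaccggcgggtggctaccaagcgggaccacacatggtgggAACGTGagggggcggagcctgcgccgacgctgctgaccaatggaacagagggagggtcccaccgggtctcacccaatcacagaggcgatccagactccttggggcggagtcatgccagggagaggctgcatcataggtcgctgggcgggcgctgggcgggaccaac
Nr1d1, chr11:98775378-98775627, minus strand: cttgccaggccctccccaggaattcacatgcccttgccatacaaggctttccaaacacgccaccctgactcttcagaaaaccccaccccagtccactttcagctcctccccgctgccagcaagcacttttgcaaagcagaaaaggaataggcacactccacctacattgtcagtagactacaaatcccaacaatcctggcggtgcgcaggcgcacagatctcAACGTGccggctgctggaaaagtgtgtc
Nr1d2, chr14:18239107-18239356, minus strand: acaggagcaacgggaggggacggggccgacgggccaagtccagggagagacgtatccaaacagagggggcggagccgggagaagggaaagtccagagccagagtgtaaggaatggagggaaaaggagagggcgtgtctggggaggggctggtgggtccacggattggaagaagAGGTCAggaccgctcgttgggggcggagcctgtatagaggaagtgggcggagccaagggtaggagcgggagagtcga
Per1, chr11:69098699-69098948, plus strand: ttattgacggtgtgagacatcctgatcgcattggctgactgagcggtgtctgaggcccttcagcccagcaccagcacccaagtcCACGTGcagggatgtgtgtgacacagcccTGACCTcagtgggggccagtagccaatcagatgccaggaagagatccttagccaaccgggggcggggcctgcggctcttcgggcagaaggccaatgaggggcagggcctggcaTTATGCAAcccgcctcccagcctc
Cry1 holds an E-prime box 79 to 74 bases and an E-box 60 to 55 bases before its start. Cry2 holds an E-prime box at -166 to -161 and Nr1d1 one at -28 to -23. Nr1d2 holds a ROR core at -77 to -72. Per1 holds an E-box at -166 to -161, a ROR core at -137 to -132 and a D-box at -24 to -17. Outside these 5, the Per3 window holds 2 D-boxes, at -205 to -198 and at -158 to -151, and 1 of the 3 Clock windows holds a ROR core. The E-box was in 2 of the 13 clock gene windows and in 6.02% of 32841 windows of the same length over all genes. The E-prime box was in 3 of 13 and in 3.85% of all, the ROR core in 3 of 13 and in 14.0%, and the D-box in 2 of 13 and in 3.07%. The glucocorticoid element was in 0 of 13 and in 0.387% of all windows. Positions count from the RefSeq starts. For Cry2 and Nr1d1 these lie upstream of the gene starts in GENCODE M21, the source of the gene coordinates below. Bases just after those RefSeq starts were not found in the GENCODE transcripts of these genes. Distances for Cry2 and Nr1d1 therefore do not hold for the GENCODE starts. A match is a run of letters and was not tested as a binding site.

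The libraries differed as wholes before any clock gene was looked at. TPM carries no read depth, so the depth of each library is unknown. Over the 11099 tested genes the median log2 difference, homozygous minus WT, was 0.26, and 85.8% of genes had a positive one. Values of the tested clock genes are therefore given both as deposited and median-centred, with each library's own median gene subtracted on the log2(TPM + 1) scale. Isoform values are given as deposited only. The group means of those medians differed by 0.30, and 44.3% of genes had a positive difference after centring. WT replicate 3 stood apart, with correlations to the other libraries of 0.951 to 0.965 across genes, mitochondrial transcripts at 14.3% of TPM against 20.9% to 33.9% in the others, and fast-fibre markers at 22.8% against 9.37% to 12.8%. Skeletal muscle markers were tested for 8 of 8 genes, and their sum was 69968 to 121592 TPM.

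**Figure D1:**
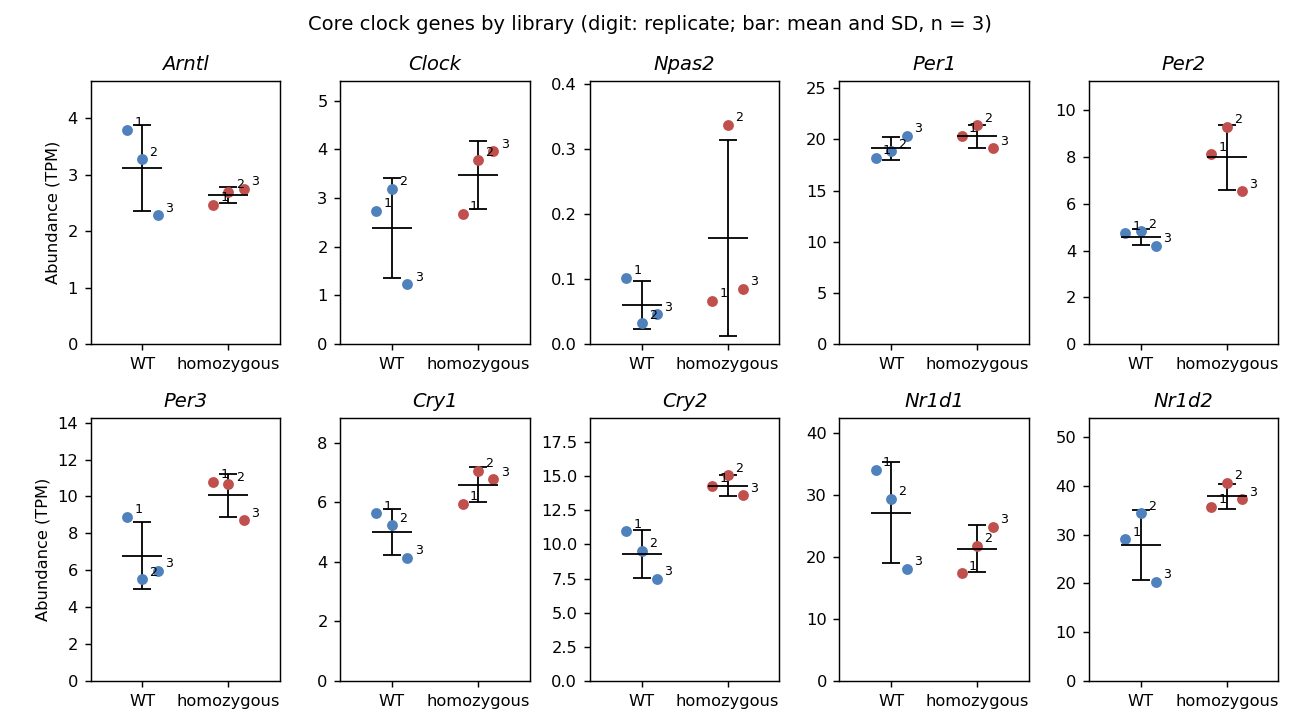
Abundance in TPM (vertical axes, each from 0) of the 10 clock genes in the 3 WT (blue) and 3 homozygous (red) libraries. Digits give the replicate, and black bars the mean and SD. Per2, Cry1, Cry2 and Nr1d2 do not overlap between the groups, and the other genes do.

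The levels of the 10 genes spanned more than 2 orders of magnitude at this hour. Nr1d2 was the most abundant, with a mean over the 6 libraries of 32.9 ± 7.25 TPM (SD, n = 6), followed by Nr1d1 at 24.3 ± 6.55 and Per1 at 19.7 ± 1.18 TPM. Nr1d2 was above Nr1d1 in 5 of 6 libraries and Nr1d1 above Per1 in 4 of 6, so these neighbours were not separated beyond their spread. Cry2 (11.8 ± 2.99 TPM) lay below Per1 with ranges that did not overlap. Per3 (8.42 ± 2.25 TPM), Per2 (6.28 ± 2.07 TPM) and Cry1 (5.80 ± 1.06 TPM) followed, and Per2 was above Cry1 in only 3 of 6 libraries. Clock (2.93 ± 0.985 TPM) and Arntl (2.88 ± 0.558 TPM) had close means. Their order followed genotype, Clock being the higher in all 3 homozygous libraries and Arntl in all 3 WT libraries, which is a description without a test. Npas2 came last at 0.111 ± 0.113 TPM. Repressors of the loop were thus the abundant members at ZT4, and the activators the scarce ones.

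No clock gene passed the test between the groups. In limma on log2(TPM + 1), with Benjamini-Hochberg adjustment over the 11099 genes, 0 of 9 clock genes had an adjusted p under 0.05, as did 0% of all genes. At an unadjusted p under 0.05 there were 4 of the 9 higher and 0 lower in homozygous muscle, beside 23.7% of all genes higher and 0.55% lower. The groups did not overlap, with homozygous above, for 4 of the 9, beside 34.7% of all genes, and with homozygous below for 0, beside 0.73%. The median difference of the 9 genes was 0.44, beside 0.26 for all tested genes.

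After centring, the clock genes parted in both directions. Over all genes at an unadjusted p under 0.05, the share with higher values in homozygous muscle was 97.7% as deposited, 51.1% after quantile normalization and 44.2% after centring. Centred groups did not overlap for 2 of the 9 with homozygous above (Per2 and Cry2, as in TPM), beside 6.79% of all genes. With homozygous below there were 3 (Arntl, Nr1d1 and Per1, which overlapped in TPM), beside 8.38%. The subtracted medians themselves did not overlap, at 3.19 to 3.28 in homozygous and 2.77 to 3.02 in WT libraries. A gene level in TPM therefore falls below WT after centring by construction. Per1 was nearly such a gene, at 18.2 to 21.4 TPM, so its separation adds little. The centred difference was positive for 6 of the 9. At an unadjusted p under 0.05 in the centred fit there was 1 of 9 higher, beside 3.65% of all genes, and there were 2 lower, beside 4.61%. None of the 9 passed in the centred limma fit, where the smallest adjusted p was 0.580. Positions of the groups in the following paragraphs are descriptions and carry no adjusted significance.

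**Figure D2:**
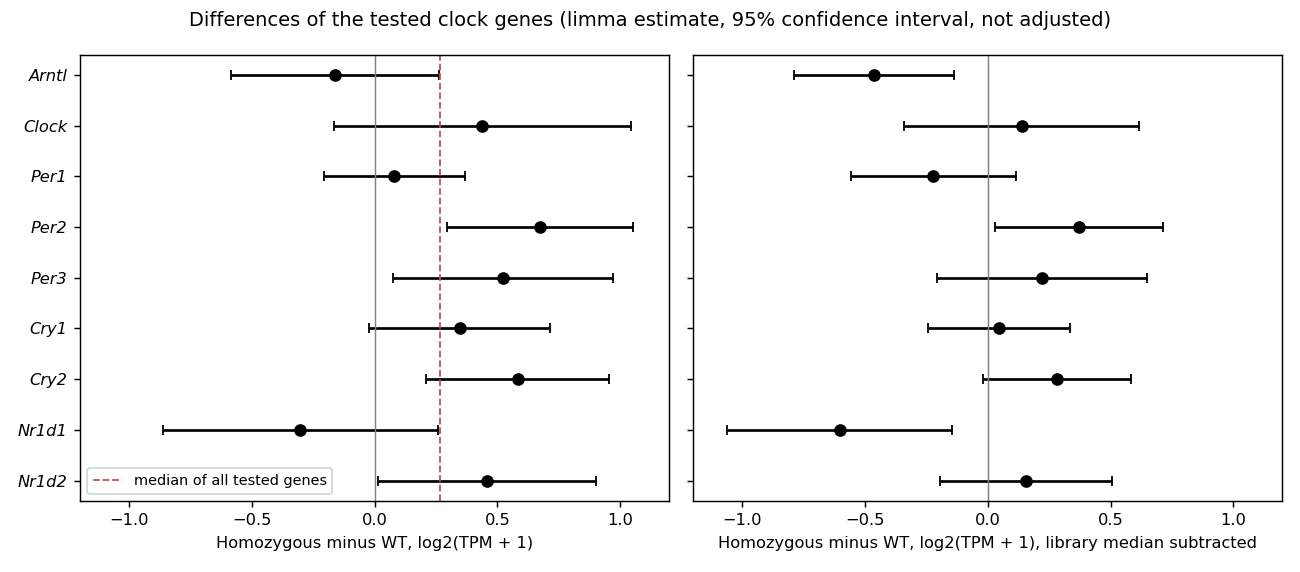
Difference of each tested clock gene, homozygous minus WT, as deposited (left) and with the library median subtracted (right), both in log2 units. Points are limma estimates, bars 95% confidence intervals without adjustment, and the dashed line is the median of all genes at 0.26. Arntl and Nr1d1 lie below 0 in both panels, with intervals that cross 0 in the left one. Per1 changes sign, and the other genes lie above 0 in both, Per2 highest.

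Arntl (chromosome 7, 113207465 to 113314126, plus strand, GRCm38) encodes BMAL1, the activator the loop cannot run without. It was 2.47, 2.70 and 2.75 TPM in homozygous replicates 1 to 3, and 3.79, 3.28 and 2.28 TPM in WT replicates 1 to 3. The TPM groups overlapped because WT replicate 3 was the lowest of the 6. The log2 difference was -0.16 (SE 0.18; limma, adjusted p 0.566), but -0.043 without WT replicate 1 and -0.32 without WT replicate 3. Centred, it was -0.46 (95% interval -0.79 to -0.14, SE 0.14; limma, adjusted p 0.580), and each homozygous library lay below each WT library. Without WT replicate 3 the centred value was -0.54. Only 5.51% of tested genes had a lower difference on the TPM scale.

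Clock (chromosome 5, 76209868 to 76304792, minus strand) encodes the partner of BMAL1 in the activating dimer. It was 2.67, 3.78 and 3.96 TPM in homozygous muscle and 2.74, 3.19 and 1.23 TPM in WT muscle. The groups overlapped, and WT replicate 3 was again the lowest. The log2 difference was 0.44 (SE 0.26; limma, adjusted p 0.305), or 0.14 after centring, and without WT replicate 3 these were 0.16 and -0.060. Npas2 (chromosome 1, 39193731 to 39363236, plus strand), which can stand in for Clock, was 0.0665, 0.337 and 0.0852 TPM in homozygous and 0.102, 0.0330 and 0.0458 TPM in WT muscle. All 6 values lay under the filter of 1 TPM, and the groups overlapped.

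The Period genes encode the repressors whose build-up closes the loop. Per2 (chromosome 1, 91415982 to 91459324, minus strand) was 8.12, 9.30 and 6.53 TPM in homozygous muscle and 4.74, 4.82 and 4.21 TPM in WT muscle. Every homozygous library exceeded every WT library, with means of 7.98 ± 1.39 and 4.59 ± 0.330 TPM (SD, n = 3 each), a ratio of 1.74. The log2 difference was 0.67 (SE 0.16; limma, adjusted p 0.168), higher than in 93.5% of tested genes. Centred, it was 0.37 (95% interval 0.031 to 0.72; limma, adjusted p 0.588), and the groups still did not overlap. Homozygous replicate 3 then lay closest to the WT libraries. Its difference was the highest of the 9 genes on both scales. In an alternative fit with array weights, which let the libraries count unequally, it passed (0.65; limma, adjusted p 0.0432). In that fit 810 of the 11099 tested genes passed, and WT replicate 3 had a weight of 0.199.

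Per1 (chromosome 11, 69095217 to 69109960, plus strand) is, like Per2, known to be induced by glucocorticoids. It was 20.3, 21.4 and 19.1 TPM in homozygous muscle, and 18.2, 18.8 and 20.4 TPM in WT muscle. Means were 20.3 ± 1.13 and 19.1 ± 1.11 TPM (SD, n = 3 each), and the groups overlapped. The log2 difference of 0.080 (95% interval -0.21 to 0.37; limma, adjusted p 0.674) became -0.22 after centring (-0.098 without WT replicate 3, which was the highest there), so its sign depended on the scaling. Per3 (chromosome 4, 151003652 to 151044665, minus strand) was 10.8, 10.7 and 8.70 TPM against 8.90, 5.51 and 5.98 TPM. Homozygous replicate 3 lay just under WT replicate 1, and the log2 difference was 0.52 (SE 0.19; limma, adjusted p 0.178), or 0.22 centred.

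The cryptochromes encode the stronger of the transcriptional repressors in the loop. Cry2 (chromosome 2, 92403646 to 92434043, minus strand) was 14.3, 15.1 and 13.6 TPM in homozygous muscle and 10.9, 9.55 and 7.46 TPM in WT muscle. The groups did not overlap on either scale. Means were 14.3 ± 0.735 and 9.32 ± 1.75 TPM (SD, n = 3 each), with a log2 difference of 0.58 (SE 0.16; limma, adjusted p 0.168), or 0.28 centred (95% interval -0.020 to 0.58). Cry1 (chromosome 10, 85131700 to 85185064, minus strand) was 5.95, 7.06 and 6.77 TPM against 5.63, 5.23 and 4.14 TPM. Its groups were apart in TPM but overlapped once centred, where the log2 difference shrank from 0.35 (limma, adjusted p 0.222) to 0.045. Cry1 followed the median gene of each library closely, its centred within-group SD of 0.073 being smaller than in all but 3.29% of tested genes.

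The REV-ERB genes pointed in different directions. Nr1d1 (chromosome 11, 98767932 to 98775333, minus strand), whose product represses Arntl, was 17.4, 21.8 and 24.9 TPM in homozygous muscle and 34.0, 29.4 and 18.1 TPM in WT muscle. WT replicates 1 and 2 were highest, while WT replicate 3 lay within the homozygous range. The log2 difference was -0.30 (SE 0.24; limma, adjusted p 0.421) and, centred, -0.60 (95% interval -1.06 to -0.14; limma, adjusted p 0.580). Centred groups did not overlap, but WT replicate 3 and homozygous replicate 3 were almost level, at -0.056 and -0.074 around the mean of the gene. Without WT replicate 3 the difference was -0.56 (limma, adjusted p 0.168) and -0.78 centred.

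Nr1d2 (chromosome 14, 18204054 to 18239127, minus strand), the relative of Nr1d1, was 35.8, 40.6 and 37.3 TPM in homozygous and 29.0, 34.4 and 20.3 TPM in WT muscle. The homozygous libraries were all above the WT libraries, by a narrow margin over WT replicate 2. The log2 difference was 0.46 (SE 0.19; limma, adjusted p 0.201), or 0.15 centred, where the groups overlapped. Without WT replicate 3 these values were 0.25 and 0.029. Exons of Nr1d1 overlap those of Thra on the opposite strand by 263 bases, those of Cry2 overlap D930015M05Rik by 295 and those of Arntl overlap Gm45355 by 33. The libraries are stranded, but the strand setting of the quantification was not given in the sources used here, so reads from these stretches may be shared. Thra was 30.1, 33.1 and 32.5 TPM in homozygous and 28.4, 25.7 and 24.9 TPM in WT muscle. Every homozygous library lay above every WT library in TPM, as for 34.7% of all tested genes.

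**Figure D3:**
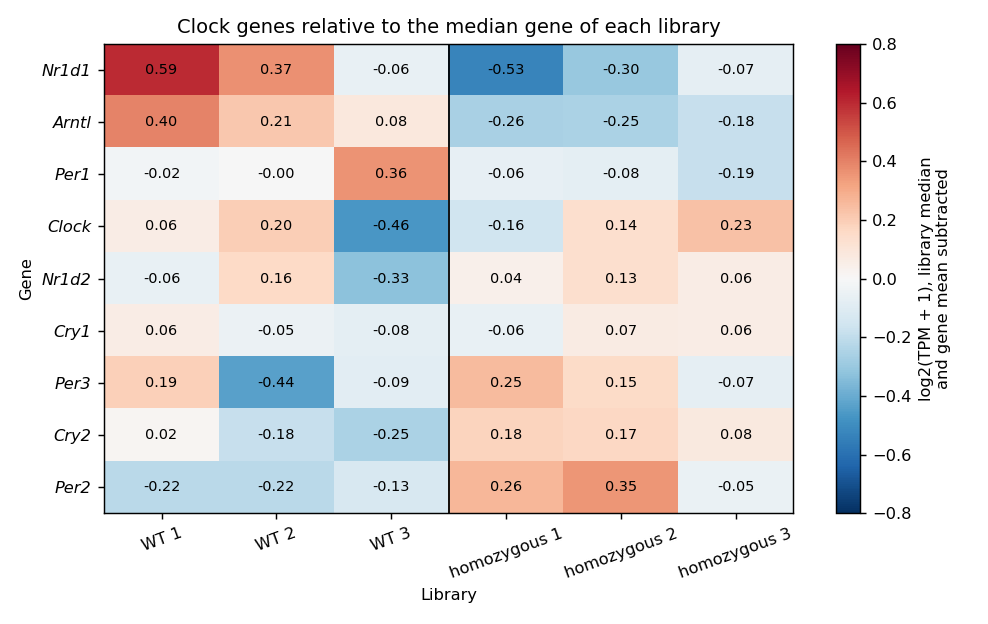
Value of the 9 tested clock genes (rows) in each library (columns) on the log2(TPM + 1) scale, with the library median and the mean of the gene subtracted. Red is above and blue below the mean of the gene. Arntl runs from 0.40 in WT replicate 1 to -0.26 in homozygous replicate 1, Nr1d1 from 0.59 to -0.53 in the same libraries, and Per2 runs the other way.

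Arntl and Nr1d1 moved together from library to library. Across the 6 libraries their centred values had a Pearson r of 0.940 (exact permutation p 0.00139, adjusted 0.0111 over 8 pairs, 7 among clock and pathway genes and 1 of Per1 with the glucocorticoid-induced gene Fkbp5) and put the libraries in the same order (Spearman rho 1, exact permutation p 0.00278, adjusted 0.0222). The permutation pooled both genotypes, and both genes were lower in every homozygous than in every WT library once centred. Its p therefore includes the difference between the groups. With group means removed the r was 0.893, which was not tested. Leaving out WT replicates 1 and 2, the libraries farthest from the median of Arntl, lowered r to 0.693 over 4 libraries, so much of the relation rests on that pair. None of the other 7 pairs passed (smallest adjusted exact permutation p 0.350), and these included Arntl with Clock (r -0.022) and Per1 with Per2 (r -0.33). The activator was set against its repressor next, on the log2(TPM + 1) scale, where the added 1 keeps the difference from being a ratio of abundances. The log2 difference of Arntl minus Nr1d1 within a library was -2.40, -2.63 and -2.79 in homozygous and -2.87, -2.83 and -2.54 in WT muscle. The means of -2.60 ± 0.192 and -2.75 ± 0.182 (SD, n = 3 each) differed by 0.14, with overlapping groups (two-sided exact permutation p 0.5, where 3 against 3 cannot go below 0.1). The difference was 0.25 without WT replicate 3 and 0.040 without homozygous replicate 1.

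Single transcripts were examined next, since the table splits each gene into isoforms. Their values are given as deposited, without centring, and the median log2 difference of all tested isoforms was 0.25. The share of all isoforms whose groups did not overlap was not counted. Names, classes and lengths come from GENCODE M21, which matched 40 of 40 rows, 22 of them protein coding, and 4 rows were at 0 in all libraries. In the limma fit of 21165 isoforms, 0 of 14 clock isoforms passed, beside 0.0425% of all isoforms. At an unadjusted p under 0.05 there were 3 of 14 higher, beside 14.2% of all isoforms, and 0 lower, beside 1.52%. These 3 were the main rows of Per2 and Cry2 and a retained-intron row of Nr1d2. Isoform use was tested in limma (diffSplice, F test) for the 5 clock genes with at least 2 tested isoforms, and 0 passed, beside 1.98% of 4849 genes. At an unadjusted p under 0.05 there were also 0 of the 5, beside 14.3% of genes, and the adjusted p ran from 0.582 to 0.933.

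Per1 and Per3 were mixtures of isoforms whose make-up differed between libraries. Per1 was made up mainly of its longest row ENSMUST00000021271.13 (4671 nt), at 16.6, 16.9 and 15.5 TPM in homozygous and 11.6, 11.0 and 14.8 TPM in WT muscle. In TPM the groups of this row did not overlap, although those of the gene sum did (log2 difference 0.38, SE 0.16; limma, adjusted p 0.322). WT replicate 3 came closest to the homozygous libraries, and its library median was the lowest of all (2.77). Separation of this row after centring was not tested. Part of the remainder of Per1 was ENSMUST00000166748.7 (4636 nt), which starts downstream, at 69100158 rather than 69098948. It was 3.51 TPM in WT replicate 1 and 2.42 TPM in WT replicate 2, but at most 0.167 TPM in the other 4 libraries, WT replicate 3 included. It was below the filter and was not tested. Both rows are annotated as coding, and how reads common to them were divided can shift abundance from one to the other.

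Per3 was split between a coding row and rows classed as non-coding or as decay targets. The coding row ENSMUST00000103204.10 (5999 nt) was 5.49, 5.42 and 3.37 TPM in homozygous and 4.35, 2.41 and 1.21 TPM in WT muscle (log2 difference 0.72, SE 0.36; limma, adjusted p 0.360). The processed transcript ENSMUST00000138052.7 (3663 nt) was nearly level, at 3.80, 3.50 and 3.31 TPM against 3.43, 2.48 and 4.03 TPM. Coding rows therefore held 38.7% to 50.9% of Per3 in homozygous and 48.9%, 43.8% and 20.2% in WT muscle. The lowest share was that of WT replicate 3. Among the other 9 genes the lowest coding share in any library was 64.2%, for Npas2.

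**Figure D4:**
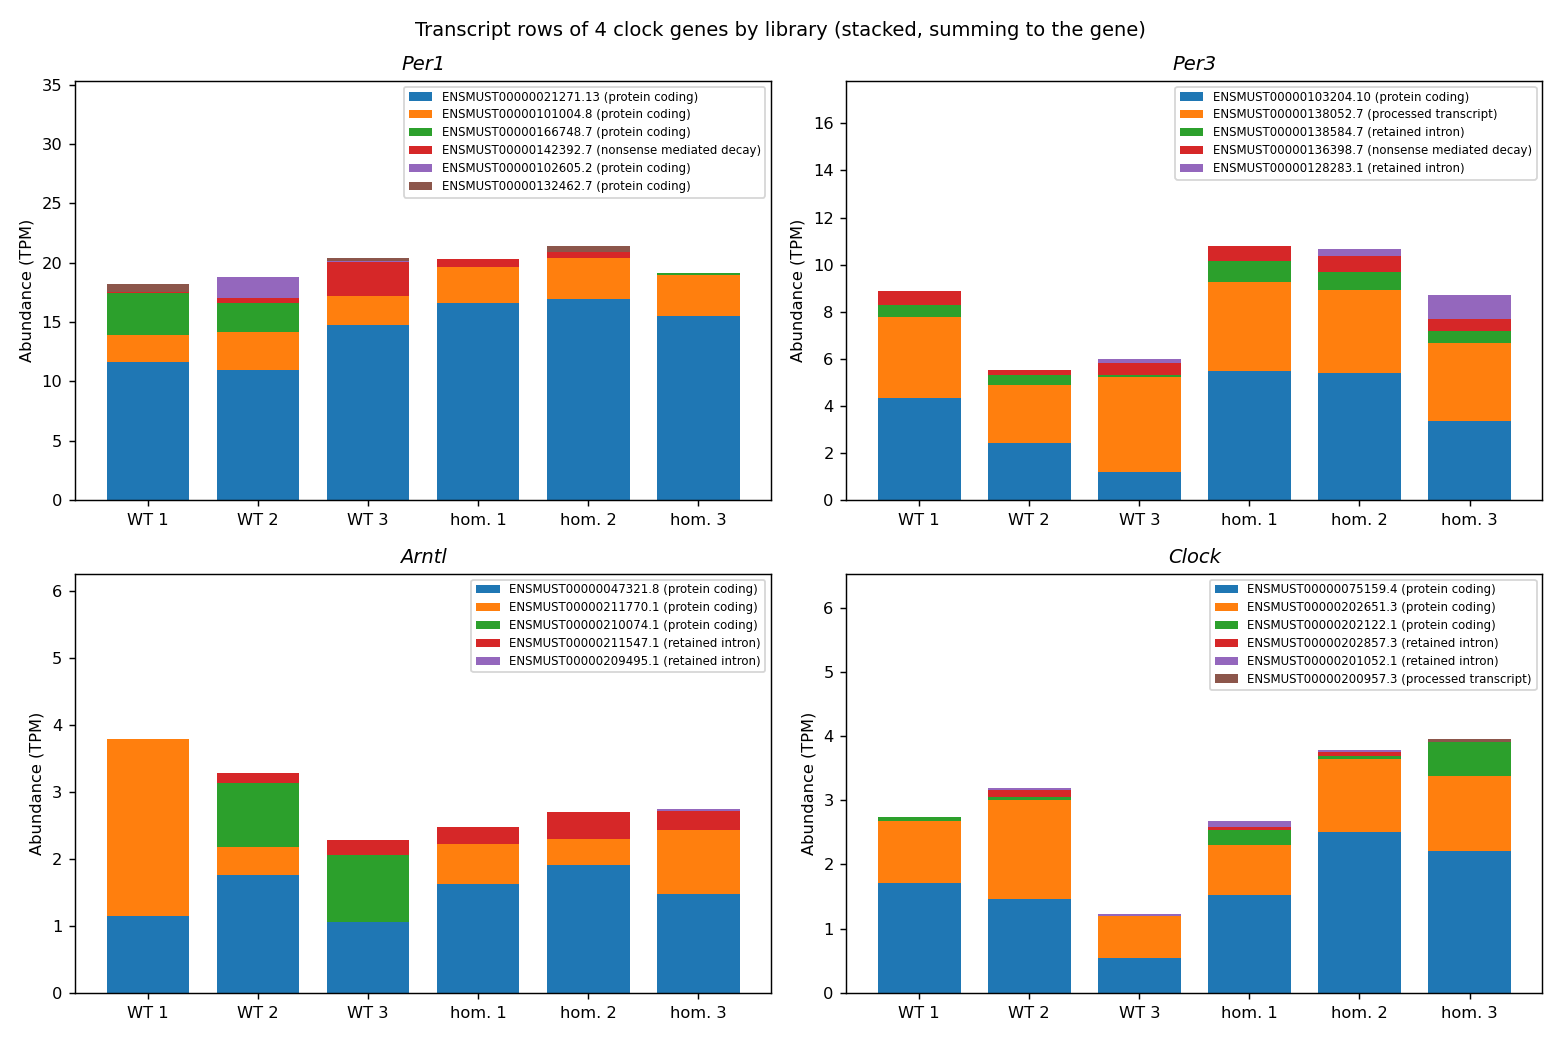
Abundance in TPM of the transcript rows of Per1, Per3, Arntl and Clock in each library, stacked so that a bar is the gene sum; legends give the GENCODE M21 class. The Per1 row ENSMUST00000166748.7 (green) is 3.51 and 2.42 TPM in WT replicates 1 and 2, and the Per3 coding row (blue) is smallest in WT replicate 3, at 1.21 TPM.

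The make-up of Arntl differed between the WT animals. The main row ENSMUST00000047321.8 (2908 nt) was 1.62, 1.91 and 1.48 TPM in homozygous and 1.15, 1.77 and 1.06 TPM in WT muscle (log2 difference 0.21; limma, adjusted p 0.603), opposite in sign to the gene sum on the TPM scale. The high Arntl sum of WT replicate 1 came from ENSMUST00000211770.1, at 2.65 TPM there and at most 0.951 TPM elsewhere. ENSMUST00000210074.1 was 0.961 and 1.01 TPM in WT replicates 2 and 3 and listed at 0 in the other 4 libraries. All 3 rows are annotated as coding, and the last was below the filter, as was ENSMUST00000211770.1. For Clock, the share of ENSMUST00000202651.3 was 29.4%, 29.9% and 29.7% in homozygous and 35.3%, 48.4% and 53.7% in WT libraries, without a call in the isoform use test (adjusted p 0.634). For Nr1d2, the retained-intron row ENSMUST00000143308.1 was 4.08, 4.96 and 4.52 TPM against 2.97, 2.45 and 0.888 TPM (log2 difference 0.90, SE 0.31; limma, adjusted p 0.291). Its groups did not overlap in TPM.

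The wider clock pathway was read from 24 further genes, of which 22 were tested. In limma 0 of the 22 passed, with 6 higher and 1 lower at an unadjusted p under 0.05, beside 23.7% and 0.55% of all genes. Homozygous lay above WT without overlap for 9 of the 22, beside 34.7% of all genes. After centring, homozygous lay below WT without overlap for 2 of the 22, beside 8.38% of all genes, and above for 1, beside 6.79%. In the centred fit 1 was higher and 2 were lower at an unadjusted p under 0.05, beside 3.65% and 4.61% of all genes. Their median difference was 0.29, or -0.011 centred, beside 0.26 and -0.037 for all genes. Dbp, a PAR bZIP activator that binds D-boxes and is a classic direct output of BMAL1 and CLOCK, had the lowest value of the list. It was 103, 55.5 and 59.6 TPM in homozygous and 115, 94.4 and 126 TPM in WT muscle. Homozygous replicate 1 overlapped the WT range in TPM but not after centring. The log2 difference was -0.66 (SE 0.24; limma, adjusted p 0.178), or -0.96 centred (limma, adjusted p 0.580). Ciart, a repressor of BMAL1 and CLOCK, was 8.49, 11.6 and 9.89 TPM against 13.7, 12.9 and 10.5 TPM. Its log2 difference was -0.28 (SE 0.17; limma, adjusted p 0.299), or -0.58 centred, where the groups did not overlap.

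The relatives of Dbp did not share its position. Tef, a second PAR bZIP gene, was 145, 138 and 149 TPM in homozygous and 109.99, 108 and 105 TPM in WT muscle. Its groups did not overlap in TPM, and the log2 difference was 0.41 (SE 0.12; limma, adjusted p 0.168), or 0.11 centred. Hlf, the third, differed by 0.26 (limma, adjusted p 0.454), or -0.045 centred. Nfil3, the repressor that competes for D-boxes, differed by 0.29 (limma, adjusted p 0.377), or -0.014 centred, and both had overlapping groups. Rora, an activator at ROR elements, was 14.8, 16.4 and 17.3 TPM against 13.1, 13.5 and 6.78 TPM (log2 difference 0.55; limma, adjusted p 0.210). Bhlhe40 and Bhlhe41, E-box repressors of the loop, differed by -0.046 and 0.059 (limma, adjusted p 0.837 and 0.786), or -0.35 and -0.24 centred.

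**Figure D5:**
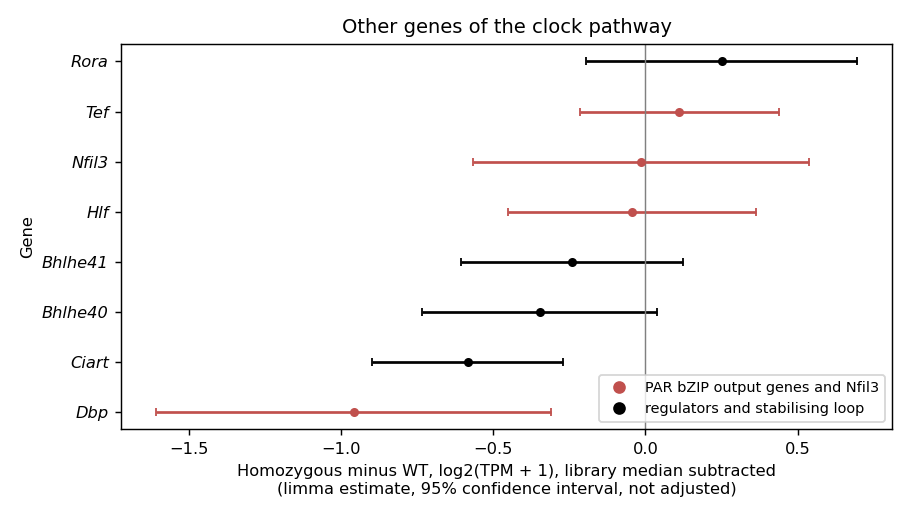
Difference of 8 tested pathway genes, homozygous minus WT, in log2 units with the library median subtracted (horizontal axis). Points are limma estimates and bars 95% confidence intervals without adjustment, with the PAR bZIP genes and Nfil3 in red. Dbp at -0.96 and Ciart at -0.58 lie lowest and Rora at 0.25 highest of the 8.

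Genes that glucocorticoids are known to induce were set beside Per1. Of 12 such genes, 11 were tested and 0 passed in limma, with 4 higher and 0 lower at an unadjusted p under 0.05, beside 23.7% and 0.55% of all genes. In the centred fit 2 were higher and 1 was lower at that level, beside 3.65% and 4.61% of all genes. Their median difference was 0.63, or 0.33 centred, beside 0.26 and -0.037 for all genes. Fkbp5, which encodes a chaperone of the receptor, was 11.0, 27.4 and 26.5 TPM in homozygous and 9.79, 9.70 and 25.9 TPM in WT muscle, so that WT replicate 3 sat with homozygous replicates 2 and 3 (log2 difference 0.53; limma, adjusted p 0.457). Centred Per1 and Fkbp5 had an r of 0.38 over the 6 libraries (exact permutation p 0.596, adjusted 0.794 over the 8 pairs).

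Other cell types and fibre types also differed between the libraries. All 9 slow-fibre markers had higher means in homozygous muscle. They summed to 1669, 9107 and 1987 TPM in homozygous and 1561, 1007 and 205 TPM in WT replicates 1 to 3. Homozygous replicate 2 and WT replicate 3 thus stood farthest apart, and homozygous and WT replicate 1 were nearly level. The 5 Schwann cell markers summed to 28.2 to 103 TPM in homozygous and 15.7 to 24.9 TPM in WT muscle. The 9 fast-fibre markers summed to 93715 to 128191 and 114369 to 228258 TPM. Endothelial (35.9 to 43.1 and 27.8 to 38.9 TPM), fibroblast (157 to 189 and 79.7 to 226 TPM), immune (30.3 to 42.9 and 9.15 to 41.1 TPM), satellite cell (2.25 to 2.67 and 1.36 to 2.58 TPM) and blood markers (536 to 781 and 476 to 851 TPM) overlapped. The 7 adipocyte markers summed to 1769 to 2156 and 1251 to 1549 TPM, nearly all of it Car3, which muscle also makes. No marker was at 0 in every library. With the mean of the slow-fibre markers as a covariate the log2 difference was 0.50 for Per2, 0.34 for Cry2, -0.40 for Arntl and -0.72 for Nr1d1 (limma, adjusted p 0.785 each), and -0.016 for Clock. The part of the Schwann cell markers in these results was not tested.

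Likeness to other genes was described for 4 clock genes over the 6 libraries, among 6836 non-clock genes with a mean of at least 5 TPM. The nearest to Arntl were Ginm1, Ints3 and Osbpl2 (r 0.985, 0.984 and 0.978), and 0.395% of genes reached an r of 0.9. Nearest to Nr1d1 were Asf1a, Slc35a1 and Srgn (r 0.990, 0.988 and 0.972), with 0.263% at 0.9 or more. Adamtsl5 and Plec were among the 3 nearest to Per2 (r 0.991 and 0.971), with 0.322% at that level. Per1 was nearest to Dusp14, Snrpa and Cmc2 (r 0.999, 0.996 and 0.996), and as many as 8.56% of genes reached 0.9 with it. Per1 ran only from 18.2 to 21.4 TPM, so its centred values largely mirror the subtracted library medians (2.77 to 3.28). Genes steady in TPM share that profile by construction. All of these r are on centred values and are descriptions.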

How the data were processed

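Poly-A selected, stranded RNA-seq of quadriceps muscle was analysed for 6 mice, grouped by the sample labels. The authors deposited 1 table of TPM per Ensembl transcript, per the file headers, with 1 column per library and 0 columns left unmatched. FastQC, Trimmomatic, HISAT2, kallisto and mm10 are named in the submitters' processing notes, without roles or versions; the annotation release and filters were not given in the sources used here. TPM sums to 1000000 in each library and keeps no depth, so the depth is unknown.

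Isoforms were summed per gene symbol and transformed to log2(TPM + 1). Genes and isoforms that reached 1 TPM in at least 3 libraries went into limma 3.58.1 in R 4.3.3 (mean-variance trend, robust, genotype as the only term), at a Benjamini-Hochberg adjusted p under 0.05 over all features. A fold change is on that scale and understates the change of low genes. Replicates are separate mice. Tests were checked on simulated data, where the isoform use test made more false calls than its threshold allows.

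The members and lists were chosen with earlier results of these data known. Named genes were the 10 clock genes, 10 fixed pathway or glucocorticoid-induced genes, any pathway gene past the threshold, and for 4 clock genes the 3 most alike; some of these are not reported here. Alternatives were quantile normalization, median centring, no filter, a pseudocount of 0.1, array weights, the replicate block, no mitochondrial transcripts, a slow-fibre covariate, another isoform filter and leaving out each library. A further 3 combinations with median centring were chosen after seeing the data. Coordinates are from GENCODE M21 (GRCm38), not necessarily the authors' annotation. Promoter windows are from RefSeq on GRCm38.p6.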

Additional observations from a re-analysis of the deposited data

How the results depend on the processing

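With no gene past the threshold as reported, 810 of the 11099 tested genes passed with array weights. When each library was left out 0 to 2 passed (2 without WT replicate 1, 1 without WT replicate 2). None passed under the other alternatives. With array weights 1 clock gene passed (Per2, log2 difference 0.65, adjusted p 0.0432 in limma) and 3 pathway genes, among them Csnk1e (0.61) and Tef (0.39), WT replicate 3 having a weight of 0.199 and WT replicate 1 the highest of the 6. In no other fit did a clock gene, clock isoform, pathway gene or isoform use of a clock gene pass. Per1 changed sign with quantile normalization (-0.20), median centring (-0.22, also with the replicate block), median centring without WT replicate 3 (-0.098) and median centring with the slow-fibre covariate (-0.063). Clock was -0.016 with the slow-fibre covariate, -0.18 with that covariate and median centring, and -0.060 with median centring without WT replicate 3. Cry1 was -0.034 and Nr1d2 -0.037 with median centring and the slow-fibre covariate. The cause was not tested. Arntl and Nr1d1 stayed lower, and Per2, Per3 and Cry2 higher, in all 17 alternatives, with Arntl from -0.57 to -0.043, Per2 from 0.33 to 0.80 and Nr1d1 from -0.89 to -0.12. The difference of Arntl minus Nr1d1 ran from 0.040 to 0.25 when each library was left out, and was not run with array weights, a block or a covariate. With the replicate block 0 genes and 0 clock genes passed and no call changed; same-numbered libraries correlated at -0.071, 0.061 and -0.013 in their deviations, which gives no sign of pairing.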

Other observations

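Genes through which the clock is known to act in muscle were read from a list of 12, all tested, of which 0 passed in limma, with 1 higher and 0 lower at an unadjusted p under 0.05, beside 23.7% and 0.55% of all genes. In the centred fit 0 were higher and 0 lower at that level, beside 3.65% and 4.61% of all genes. The median log2 difference was 0.19, or -0.11 centred, beside 0.26 and -0.037 for all genes. Pdk4, which restrains glucose oxidation, was 160.1, 57.9 and 46.9 TPM in homozygous and 179, 121 and 37.2 TPM in WT muscle. Ucp3, a mitochondrial carrier of muscle, was 129, 37.1 and 38.0 TPM against 71.1, 86.2 and 73.4 TPM. Homozygous replicate 1 was thus highest for Ucp3, and it was also the homozygous library with the highest Dbp, at 103 TPM. Myod1, a myogenic factor under clock control, was 7.50, 23.6 and 30.5 TPM against 7.80, 13.1 and 13.8 TPM. Tcap, a sarcomere gene bound by clock factors, ranged over 4119 to 5950 TPM with overlapping groups. Tead1 was the gene with the unadjusted call, at 22.3, 31.8 and 29.3 TPM against 22.3, 20.7 and 11.7 TPM (log2 difference 0.62, SE 0.25; limma, adjusted p 0.194). Of these, Pdk4, Ucp3, Myod1, Tcap and Tead1 were named after their values were seen.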
